A study of Homo sapiens with 6 samples.

Results

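Ciliary genes are the textbook targets of the RFX transcription factors, and 55 of them were followed here in Hep3B cells with and without an RFX6 guide. The members were taken by name from the 16720 named genes of the count table, by a rule that used no measured value. Earlier results of these data were known when the rule was chosen. Names made of IFT and digits gave 14 genes, names made of BBS and digits gave 8, and a list of transport, motor and transition zone genes gave 33. All 55 were in the table and all 55 passed the filter on low counts.

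The primary cilium is an antenna built on a core of microtubules, and it carries receptors of the Hedgehog pathway and other signals. Cargo moves along it by intraflagellar transport (IFT): heterotrimeric IFT kinesin carries trains of the IFT-B complex to the tip, and IFT dynein with the IFT-A complex brings them back. The BBSome, a coat made of BBS proteins, carries membrane proteins out of the cilium. The transition zone at the base acts as a gate. RFX factors bind the X-box, an inverted repeat, in the promoters of many of these genes. Within the family, RFX2 and RFX3 are best known for ciliary genes, whereas RFX6 is best known for its part in making the endocrine pancreas.

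Hep3B is an established human cell line from a hepatocellular carcinoma. RNA was sequenced in 3 libraries of cells carrying a control guide (sgControl) and 3 libraries of cells in which RFX6 had been targeted by CRISPR (sgRFX6). All sgRFX6 columns are named sg3, the name of an RFX6 guide in the study's methods. Effects of that guide and of the loss of RFX6 therefore cannot be told apart. Per the study's methods, guides were delivered in lentiCRISPRv2 virus, infected cells were selected with puromycin, and clones grown from single cells were expanded. How many clones stand behind the libraries of a group was not given in the sources used here, so p-values measure only the spread between these libraries, which may be technical. The libraries held 16730386 to 25070793 counts. Levels are given below as CPM, counts relative to the size of the library after TMM scaling, for libraries 1, 2 and 3 of each group in that order.

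The targeted gene was lower in the 3 sgRFX6 libraries. RFX6 was at 5.64, 5.83 and 7.34 CPM in sgControl and at 3.43, 3.71 and 3.50 CPM in sgRFX6, without overlap of the groups. Its log2 fold change of -0.82 ± 0.26 (SE) did not pass the test (edgeR adjusted p = 0.142). It passed with a correction for GC content (adjusted p = 0.0467), and adjusted p ran from 0.00274 to 0.505 over the alternatives. The mRNA level alone does not say whether the protein was lost. The study reports that its RFX6 knockout was checked by real-time PCR and, for the protein, by Western blotting. Whether this was done on the cells sequenced is not stated in the sources used here. All 10 hepatocyte markers were in the table, summing to 260.4 to 307 CPM in sgControl and 209.5 to 225 CPM in sgRFX6. Most of these sums came from HNF4A (mean 151 CPM in sgControl, 126 in sgRFX6) and APOB (66.6 and 27.1 CPM). By gene, 7 of the 10 log2 fold changes were positive and 3 negative, with a median of 0.29. EdgeR called 3 of the 10, 2 higher and 1 lower, where it called 3.74% of all tested genes. AFP, the fetal albumin relative that hepatoma cells often secrete, was at only 1.58 to 2.31 CPM in sgControl and rose to 9.98 to 17.2 CPM in sgRFX6 (log2 fold change 2.82, adjusted p = 0.00254). AHSG also rose, and FGB fell by 2.449 on the log2 scale (adjusted p = 0.00417). The blood markers summed to 1.83 to 3.89 CPM in sgControl and 3.77 to 4.09 CPM in sgRFX6, and the endothelial markers to 11.8 to 13.6 and 13.4 to 19.7 CPM. The fibroblast markers summed to 24.5 to 33.1 CPM in sgControl and to 21.3, 22.9 and 56.2 CPM in sgRFX6, so that only library 3 was above sgControl. Of the 4 fibroblast markers tested, edgeR called 2 lower and 0 higher, where it called 1.81% of all tested genes lower. The part of such levels in the results was not tested. Library 3 of sgRFX6 stood apart from libraries 1 and 2 along the GC content of transcripts, and this reached the ciliary genes strongly, as described below.

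The summed level of the ciliary genes was slightly higher in every sgRFX6 library. It was 1005, 1022 and 976.5 CPM in sgControl and 1090, 1070 and 1100 CPM in sgRFX6. The sum leans on abundant genes and is not a measure of a shared shift. WDR34 alone gave 127, 106 and 152 CPM in sgControl and 169, 211 and 105 CPM in sgRFX6. In library 3 of sgRFX6, the 19 members of lowest GC content summed to 260 CPM, beside 108 to 187 CPM in the other libraries. The log2 fold change was above 0 for 34 of the 55 genes and below 0 for 21, and without library 3 of sgRFX6 it was above 0 for 24 and below 0 for 31. With all 6 libraries the median was 0.05, beside 0.02 over all 12839 genes tested, of which 52.7% were above 0. By edgeR's quasi-likelihood test, 1 of the 55 passed an adjusted p of 0.05, where 3.74% of all tested genes did. The gene that passed, IFT46, rose, as 1.92% of all tested genes did. A further 5 reached an unadjusted p under 0.05, which 15.6% of all tested genes reached. The groups did not overlap for 11 of the 55 (20%), 9 of them higher and 2 lower in sgRFX6, beside 23.1% of all tested genes. The size of the differences was small: 45 members had a log2 fold change under 0.5 in either direction, and only IFT46 and CEP290 reached 1. In bulk RNA, a different share of cells of a type and a different amount of RNA per cell cannot be told apart.

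**Figure D1:**
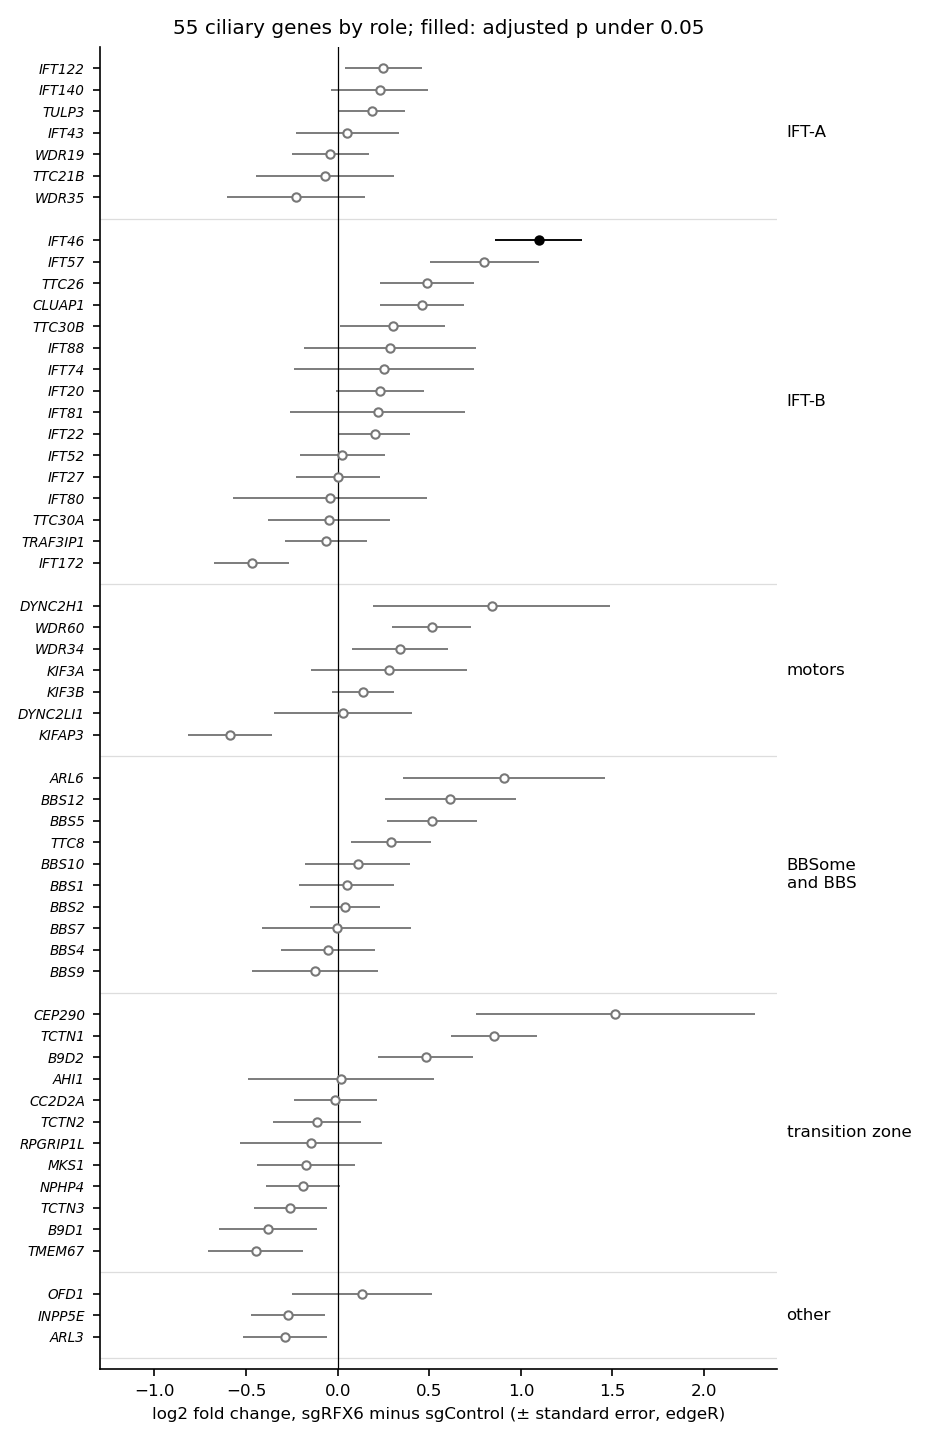
Log2 fold change (sgRFX6 minus sgControl, edgeR) of each of the 55 ciliary genes with its standard error, grouped by role, each from 3 against 3 libraries. The filled point is IFT46, at 1.10, and CEP290, at 1.51, has the widest bar.

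The complexes were carried at very unequal levels. Per kilobase of exon, over the means of both groups, WDR34 was the most abundant member at 55.7 CPM. KIF3B followed at 16.5 CPM per kilobase, TULP3 at 15.6, TCTN3 at 9.29 and IFT22 at 8.14. The least abundant per kilobase was DYNC2H1 at 0.238 CPM, then IFT74 at 0.365, BBS12 at 0.465, ARL6 at 0.524 and BBS9 at 0.581. In sgControl alone the first 4 and the last 2 of the order were the same, but INPP5E (8.52) stood above IFT22 (7.57), and CEP290 (0.3676) was level with ARL6 (0.3675) and BBS12 (0.3674). WDR34 and DYNC2H1 thus stand at opposite ends of the order although both belong to IFT dynein, the first as an intermediate chain and the second as the heavy chain.

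The promoters were searched for the sequences that RFX factors are known to bind. RefSeq promoter windows, from 250 bases before to 50 after the start site on GRCh38.p14, were matched for 50 of the 55 genes, with 59 windows in all. BBS9, IFT22, TCTN2, TMEM67 and WDR35 had no entry. The windows were searched on both strands for the X-box and for the single RFX motif GTTGCC, which can lie inside an X-box. An X-box was found in 8 of the 59 windows (13.6%), beside 1.31% of all 35116 promoter windows. GTTGCC was found in 24 of them (40.7%), beside 12.2% of all windows. The 8 X-boxes are shown because they are the sequences by which an RFX factor would be expected to recognise these genes. Each is written 5′ to 3′ on the strand of its gene, with the X-box in capitals.
TCTN1: tgtcgcgGTTGCCGGGCAACgcgctgt
TCTN3: actgacgGTTGCCAGGCAACggaggca
B9D1: tgggactGTTACCTTGGCTACtggctcc
B9D2: gcctgctGTTGCCCCAGCAACaaccacg
IFT57: tccggtgGTCGCCTGGTAACcggtcgt
IFT122: catgtacGTTGCCAGGGGTAACgcaggta
TTC30A: ttgccctGTTGCCGTGGTAACcgcacgc
TTC30B: ttgctctGTTGCCATAGTAACcgcaccc

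The TCTN1 sequence lies at chr12:110614122-110614148 on the plus strand and that of TCTN3 at chr10:95694123-95694149 on the minus strand. The B9D1 sequence lies at chr17:19378086-19378113 and that of B9D2 at chr19:41364137-41364164, both on the minus strand. For IFT57 the sequence is at chr3:108222408-108222434 on the minus strand and for IFT122 at chr3:129440205-129440233 on the plus strand. The TTC30A and TTC30B sequences lie close to each other on the minus strand of the same chromosome, at chr2:177618720-177618747 and chr2:177552782-177552809. Counting the first transcribed base as 1, with no position 0, the X-box began between positions -12 and 3 in 6 of the genes and further upstream in B9D1 (-193) and TCTN3 (-215). A match describes letters in a window and is not evidence of binding.

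The 8 genes with an X-box did not move together. Their log2 fold changes ran from -0.38 to 0.85 with a median of 0.27, 5 were positive and 3 negative. By edgeR none passed the test and 2 reached an unadjusted p under 0.05, and DESeq2 called TCTN1. The shares of all tested genes that did so were 3.74%, 15.6% and 6.97%. The 42 genes with a window but no X-box had a median of 0.08, with 28 positive and 14 negative. TCTN1, IFT57, B9D2, TTC30B and IFT122 were on the positive side, and TTC30A, TCTN3 and B9D1 on the negative side. TCTN3 and TCTN1 carry X-boxes with the same arms around a gap of 1 base, yet their log2 fold changes were -0.26 and 0.85.

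A larger number of members could be set side by side for the single motif. For the 22 genes with GTTGCC the median was 0.25, with 19 positive and 3 negative log2 fold changes, whereas for the 28 without it the median was 0.01, with 14 of each sign. Over all tested genes with a window, 54.4% of the 1702 with GTTGCC and 52.6% of the 8308 without it were positive. Without library 3 of sgRFX6, the ciliary medians were 0.13 and -0.11, and 12 of the 22 genes with the motif were positive, beside 10 of the 28 without it. These counts are a description, and the difference between the sets of genes was not tested.

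**Figure D2:**
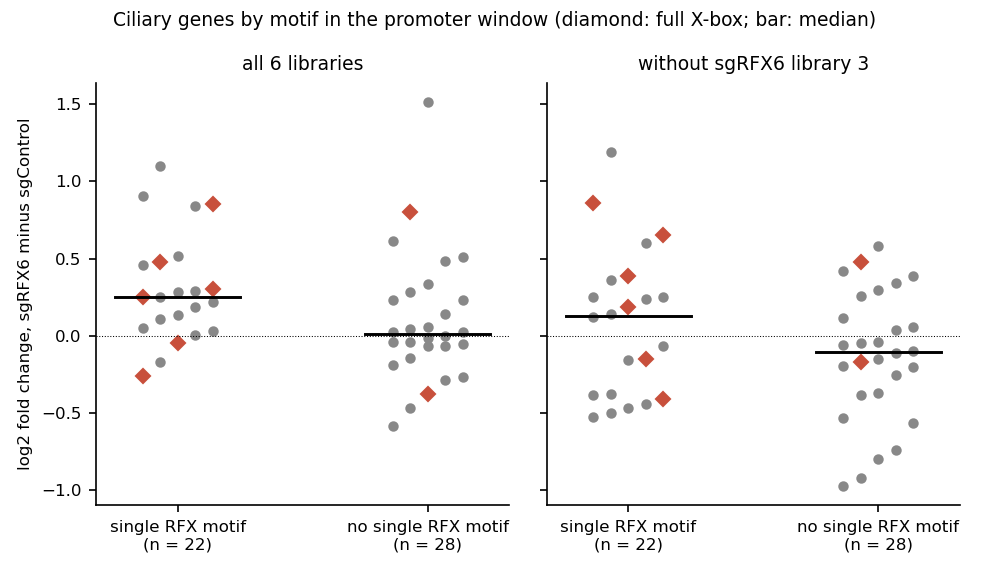
Log2 fold change (sgRFX6 minus sgControl) of the 50 ciliary genes with a promoter window, with and without the single RFX motif (22 and 28 genes), from all 6 libraries on the left and without library 3 of sgRFX6 on the right. Red diamonds are the 8 genes with a full X-box, bars are medians (0.25 and 0.01 on the left, 0.13 and -0.11 on the right), and the values of both sets overlap over most of their range.

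The IFT-B complex, which carries cargo towards the tip, held the 1 call that edgeR made with all 6 libraries. Of its 16 members, 12 lay above 0 and 4 below, with a median of 0.22 and a range of -0.47 to 1.10 on the log2 scale. Without library 3 of sgRFX6, 8 lay above and 8 below, with a median of 0.05. IFT46 is a core subunit of the complex and lies at chr11:118544528-118572970 on the minus strand (GRCh38, GENCODE 29). It was at 5.40, 6.36 and 5.22 CPM in sgControl, from 112, 157 and 121 counts, and at 13.6, 12.2 and 10.6 CPM in sgRFX6, from 274, 194 and 233 counts. All 3 sgRFX6 libraries lay well above all 3 sgControl libraries. The log2 fold change was 1.10 ± 0.24 (SE, 3 against 3 libraries; edgeR adjusted p = 0.0398). The promoter window of IFT46 holds no X-box but has GTTGCC at position -196, at chr11:118566112-118566137 on the minus strand, with the motif in capitals here.
IFT46: tatcagccgcGTTGCCacccatagcc

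The rise of IFT46 stood near the threshold. It passed in 1 of the 6 fits that left out a library, with adjusted p between 0.0260 and 0.189, while the log2 fold change stayed between 1.01 and 1.19. It did not pass with the replicate number as a block (adjusted p = 0.0625). Around it on the chromosome, the nearest 50 tested genes had a median of 0.36, and after that median was removed its own was 0.74 (adjusted p = 0.190).

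IFT57, a subunit of the outer part of IFT-B, had an X-box at its start site. It was at 9.20, 11.2 and 9.02 CPM in sgControl and at 15.6, 11.7 and 23.9 CPM in sgRFX6. The groups did not overlap, but library 2 of sgRFX6 lay just above the highest sgControl library and library 3 far above it. Its log2 fold change of 0.80 ± 0.30 did not pass (adjusted p = 0.220), fell to 0.48 without library 3, and fell to 0.26 when the median of its nearest 50 genes, 0.54, was removed. IFT172, the largest member of the outer part, was at 19.3, 20.05 and 18.7 CPM in sgControl and at 15.2, 14.4 and 12.4 CPM in sgRFX6. It was lower in every sgRFX6 library than in any sgControl library, with a log2 fold change of -0.47 ± 0.21 (adjusted p = 0.319).

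The other members whose groups did not overlap in IFT-B were CLUAP1 and TTC26, both of them subunits of the complex. CLUAP1 was at 7.47, 9.19 and 8.33 CPM in sgControl and at 10.8, 10.6 and 12.99 CPM in sgRFX6, a log2 fold change of 0.46 (adjusted p = 0.397). TTC26 was at 11.1, 7.98 and 9.50 CPM in sgControl and at 12.1, 11.3 and 16.7 CPM in sgRFX6, a log2 fold change of 0.49 (adjusted p = 0.424). TTC30A and TTC30B are near copies of each other, so that reads may have been divided between them. TTC30A was at 4.48, 4.50 and 4.02 CPM in sgControl and at 3.73, 2.77 and 6.04 CPM in sgRFX6, with a log2 fold change of -0.05. TTC30B was at 3.57, 4.50 and 2.98 CPM in sgControl and at 3.97, 4.399 and 5.22 CPM in sgRFX6, with a log2 fold change of 0.30. Both overlapped between the groups, and neither passed the test (adjusted p = 0.973 and 0.711).

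Most of the remaining IFT-B genes lay close to 0. IFT27 had a log2 fold change of 0.00, IFT52 of 0.02, TRAF3IP1 of -0.06, IFT22 of 0.20 and IFT20 of 0.23. The exons of IFT20 share 11.2% of their bases with TMEM97 on the other strand. IFT74, IFT80, IFT81 and IFT88 had log2 fold changes of 0.25, -0.04, 0.22 and 0.28, or of -0.50, -0.98, -0.53 and -0.38 without library 3, and for all 4 the sgRFX6 libraries were further apart than the groups. IFT80 was at 12.7, 7.05 and 6.99 CPM in sgControl and at 4.87, 4.15 and 16.9 CPM in sgRFX6, so that it was both lowest and highest in sgRFX6. Another annotated gene on the same strand shares 27.2% of its exon bases, and reads there could be counted for either.

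The IFT-A complex, which serves the return trip, held no call and no unadjusted p under 0.05 by edgeR. Limma-voom with sample quality weights called 3 of its genes (IFT122 and IFT140 higher, WDR35 lower), where it called 31.1% of all tested genes. The 7 members of IFT-A had log2 fold changes between -0.23 and 0.25 with a median of 0.05, 4 positive and 3 negative. None had groups without overlap. IFT122, a core subunit with an X-box, was at 28.3, 35.2 and 31.6 CPM in sgControl and at 40.7, 42.2 and 30.2 CPM in sgRFX6, a log2 fold change of 0.25 (adjusted p = 0.664). Libraries 1 and 2 of sgRFX6 were above sgControl and library 3 was within it. IFT140 had a log2 fold change of 0.23, TULP3, an adaptor that brings receptors into the cilium, 0.18, IFT43 0.05, WDR19 -0.04, TTC21B -0.07 and WDR35 -0.23. Without library 3 of sgRFX6, TTC21B and WDR35 were at -0.57 and -0.75, while 4 of the 7 members lay above 0 and the median was 0.11.

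Among the motors, all 4 genes of IFT dynein had a positive log2 fold change, with a median of 0.42, but without library 3 of sgRFX6 2 of the 4 were negative and the median was -0.01. Heterotrimeric IFT kinesin had KIF3A and KIF3B at 0.28 and 0.14 and KIFAP3 at -0.59, and KIF3A was at -0.20 without library 3. KIFAP3 encodes the adaptor of the kinesin and lies at chr1:169921326-170085208. It was at 35.2, 32.8 and 30.2 CPM in sgControl and at 19.2, 18.2 and 27.9 CPM in sgRFX6. No sgRFX6 library reached the lowest sgControl value, and library 3 came closest. The log2 fold change of -0.59 ± 0.23 did not pass (adjusted p = 0.2495). It passed at -0.80 without library 3 (adjusted p = 0.0395), a fit in which IFT46 was the only other member called and 5.52% of all tested genes were called, and at -0.69 with a correction for GC content (adjusted p = 0.0452).

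WDR60, an intermediate chain of IFT dynein, was at 15.5, 17.4 and 14.2 CPM in sgControl and at 22.4, 19.6 and 25.3 CPM in sgRFX6. The groups did not overlap, and the log2 fold change was 0.51 ± 0.21 (adjusted p = 0.286). It lies on chromosome 7, where its 50 nearest genes had a median of 0.40, and 0.12 was left after that median was removed. Its partner WDR34 was at 127, 106 and 152 CPM in sgControl and at 169, 211 and 105 CPM in sgRFX6, with a log2 fold change of 0.34 ± 0.26 (adjusted p = 0.621). The sgRFX6 libraries of WDR34 held both the highest and the lowest of the 6 values. DYNC2H1 was at 3.13, 2.75 and 1.81 CPM in sgControl and at 2.24, 1.51 and 9.95 CPM in sgRFX6, and its log2 fold change of 0.84 became -0.44 without library 3. DYNC2LI1, the light intermediate chain, had a log2 fold change of 0.03, which became -0.47 without library 3 and -0.15 with the correction for GC content.

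**Figure D3:**
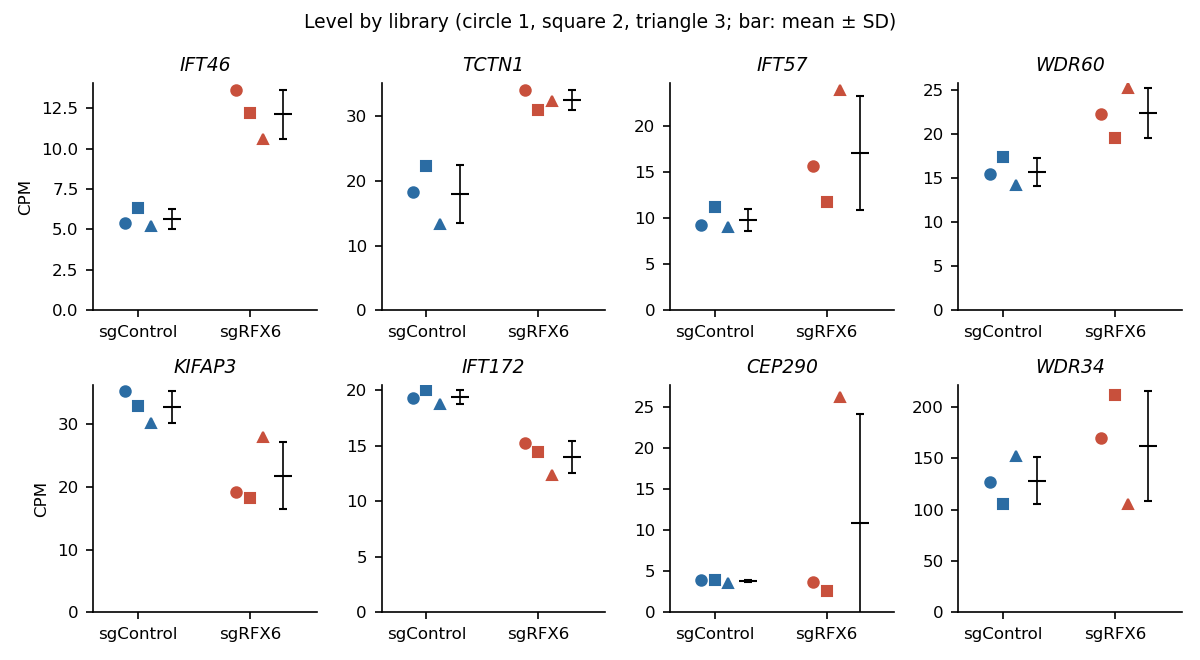
Level in CPM of 8 ciliary genes in each library (circle library 1, square 2, triangle 3), with the mean ± SD of 3 libraries in black beside each group. IFT46, TCTN1, IFT57 and WDR60 lie higher and KIFAP3 and IFT172 lower in all sgRFX6 libraries, whereas CEP290 is high in library 3 of sgRFX6 alone, at 26.3 CPM, and its SD bar is drawn only down to 0.

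The 10 BBS genes, mutated in Bardet-Biedl syndrome, gave 7 log2 fold changes above 0 and 3 below, with a median of 0.08, and none passed or reached an unadjusted p under 0.05 by edgeR. For the 7 subunits of the BBSome itself the median was 0.04. BBS5 was at 12.7, 9.48 and 14.6 CPM in sgControl and at 16.7, 20.3 and 15.6 CPM in sgRFX6, a log2 fold change of 0.52 without overlap (adjusted p = 0.374). Another annotated gene on the same strand shares 21.9% of its exon bases. TTC8 also had no overlap, at 8.48, 10.04 and 9.76 CPM in sgControl and 11.5, 10.6 and 12.5 CPM in sgRFX6, a log2 fold change of 0.29 (adjusted p = 0.610). The other subunits lay between -0.12 for BBS9 and 0.05 for BBS1, and 53.9% of the exon bases of BBS1 are shared with another annotated gene on the same strand. Without library 3 of sgRFX6, BBS7 was at -0.53, and of the 10 BBS genes 6 lay above 0 and 4 below. ARL6, the GTPase that recruits the BBSome to membranes, had the largest log2 fold change of these genes at 0.91. Its levels of 2.51, 0.810 and 1.73 CPM in sgControl and 2.43, 1.51 and 5.41 CPM in sgRFX6 overlapped, and without library 3 its log2 fold change was 0.25, below BBS5 (0.60) and BBS12 (0.34). BBS10 and BBS12, which resemble chaperonins and help to assemble the BBSome, were at 0.11 and 0.61.

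The transition zone had more negative than positive values, 8 against 4, and a median log2 fold change of -0.13. TCTN1, a tectonic at chr12:110614027-110649430, was the clearest exception. It was at 18.3, 22.4 and 13.4 CPM in sgControl and at 34.1, 31.0 and 32.3 CPM in sgRFX6. The 3 sgRFX6 libraries lay close together and above all sgControl libraries. Its log2 fold change of 0.85 ± 0.24 missed the threshold (adjusted p = 0.0983). It passed by DESeq2 (adjusted p = 0.0199), which called 2 members and 6.97% of all tested genes, and with a correction for GC content (adjusted p = 0.0249). By edgeR it passed in 0 of the 6 fits that left out a library, with adjusted p between 0.0716 and 0.331. The nearest 50 tested genes had a median of 0.21, and 0.64 was left after that median was removed (adjusted p = 0.276). The exons of HVCN1 on the other strand cover 6.61% of its exon bases. The other tectonics were on the negative side. TCTN3 was at 33.9, 33.4 and 30.6 CPM in sgControl and at 30.9, 27.7 and 23.2 CPM in sgRFX6, with a log2 fold change of -0.26 (adjusted p = 0.615), and TCTN2 had a log2 fold change of -0.11.

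B9D1 and B9D2 belong to one complex with MKS1, and each had an X-box. B9D1 was at 19.8, 24.0 and 20.1 CPM in sgControl and at 16.2, 21.6 and 11.4 CPM in sgRFX6, a log2 fold change of -0.38 (adjusted p = 0.579). B9D2 was at 5.78, 5.59 and 5.61 CPM in sgControl and at 8.49, 9.24 and 5.996 CPM in sgRFX6, a log2 fold change of 0.48 (adjusted p = 0.436). The groups overlapped for B9D1 and not for B9D2. MKS1 had a log2 fold change of -0.17. TMEM67, NPHP4, RPGRIP1L, CC2D2A and AHI1 were at -0.45, -0.19, -0.14, -0.01 and 0.02. Without library 3 of sgRFX6 they were at -0.64, -0.06, -0.74, -0.10 and -0.93. Limma-voom with sample quality weights called AHI1 at -0.97 (adjusted p = 0.00588), where it called 31.1% of all tested genes. Outside these groups, INPP5E, a phosphatase of the ciliary membrane, was at -0.27, ARL3, a GTPase that releases lipid-modified cargo, at -0.29, and OFD1, a protein of the centriole, at 0.13. Without library 3, INPP5E, ARL3 and OFD1 were at -0.11, -0.37 and -0.39.

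CEP290, a linker between membrane and microtubules at the transition zone, had the largest log2 fold change of all 55 members, and it rested on a single library. It was at 3.90, 3.93 and 3.63 CPM in sgControl and at 3.73, 2.64 and 26.3 CPM in sgRFX6. Library 3 was 8.25-fold above the mean of libraries 1 and 2. The log2 fold change was 1.51 ± 0.76 (adjusted p = 0.399), and without library 3 it was -0.26 (adjusted p = 0.636).

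What happened to CEP290 happened in weaker form to many ciliary genes. Library 3 of sgRFX6 was the highest of the 6 libraries for 28 of the 55 members (28.6% of all tested genes), and for 15 it was more than 2 times the mean of libraries 1 and 2 (10.9% of all tested genes). Of these 15, 13 were among the 19 members of lowest GC content, 34.9% to 40.1%. The log2 ratio of library 3 to libraries 1 and 2 had a Spearman's rho of -0.86 and a Pearson's r of -0.78 with GC content over the 55 genes, and a rho of -0.85 over the 12211 tested genes with a GC value. The points share the same 3 libraries and are genes, not replicates. The relation was not particular to ciliary genes, nor to sgRFX6: for library 1 over library 2 of sgControl, rho was -0.53 over the 55 genes.

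The ciliary genes of low GC content therefore disagreed between sgRFX6 libraries. Their summed level was 187, 146 and 149.8 CPM in sgControl and 123, 108 and 260 CPM in sgRFX6. Libraries 1 and 2 of sgRFX6 were the lowest of all 6 and library 3 was the highest. The 18 members of highest GC content, from 48.5% to 64.6%, had median deviations of 0.15, 0.14 and -0.21 on the log2 scale in the sgRFX6 libraries, against -0.34, -0.58 and 0.76 for the 19 of lowest GC content. After a smooth trend with GC content was removed from each library, the latter were -0.13, -0.24 and 0.06. IFT80, IFT81, AHI1, RPGRIP1L, WDR35, DYNC2H1 and CEP290 were all in the low class, and for them the spread between sgRFX6 libraries exceeded the difference between groups.

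**Figure D4:**
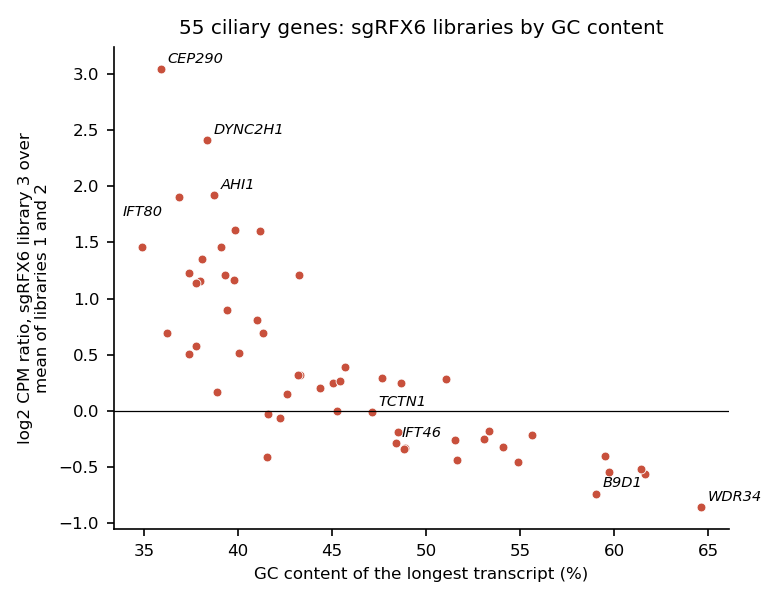
Log2 ratio of CPM in library 3 of sgRFX6 to the mean of libraries 1 and 2, against the GC content of the longest transcript in percent, for the 55 ciliary genes (1 point each, no replicates). The ratio falls with GC content (Spearman's rho -0.86), from 3.04 for CEP290 to -0.86 for WDR34, whereas IFT46 and TCTN1 lie near 0.

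With the trend removed, 3 members passed: IFT46 and TCTN1 were higher and KIFAP3 was lower in sgRFX6, where 11.1% of all tested genes passed. IFT46 then passed in each of the 6 fits that also left out a library, with adjusted p between 0.0064 and 0.0396, and without library 3 of sgRFX6 it was the 1 member called, where 6.75% of all tested genes were. Limma-voom with sample quality weights called 10 members, where it called 31.1% of all tested genes. The median log2 fold change of the 55 genes was 0.04 with the trend removed, and 4 of them changed sign.

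Other genes of the primary cilium, taken from a list of 52 written from general knowledge with earlier results of these data known, gave a like picture. Of these, 51 passed the filter, 34 of them above 0 and 17 below, and the median log2 fold change was 0.13. None passed the edgeR test, 3 reached an unadjusted p under 0.05, and DESeq2 called 1. Over all tested genes, 3.74%, 15.6% and 6.97% did so. The groups did not overlap for 7 of the 51 genes (13.7%), beside 23.1% of all tested genes. CEP41, a centrosomal protein that acts on tubulin modification and was chosen after its values were seen, came nearest: it was at 9.35, 9.84 and 6.65 CPM in sgControl and at 19.5, 14.96 and 20.7 CPM in sgRFX6, a log2 fold change of 1.09 (adjusted p = 0.0539). Genes of motile cilia were mostly low. Only 7 of the 18 in the table passed the filter, none was called by edgeR or reached an unadjusted p under 0.05, and FOXJ1, the factor that switches on multiciliation, was between 0.22 and 0.93 CPM in the 6 libraries.

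The strongest change in any ciliary list was in the Hedgehog pathway, which signals through the cilium. Of 12 genes listed, 8 passed the filter, 7 lay below 0 and 1 above, and 2 passed the test. Over all tested genes, 3.74% passed it and 52.7% lay above 0. GPR161, a receptor that resides in the cilium and holds the pathway off, was at 14.1, 12.1 and 16.1 CPM in sgControl, from 292, 298 and 372 counts, and at 0.894, 0.943 and 1.27 CPM in sgRFX6, from 18, 15 and 28 counts. It fell by 3.75 on the log2 scale (SE 0.29, adjusted p = 0.000718), with every sgRFX6 library far below every sgControl library. It passed in all 6 fits that left out a library. BOC, a co-receptor for Hedgehog ligands, was at 8.10, 8.95 and 10.02 CPM in sgControl and at 18.8, 22.5 and 16.7 CPM in sgRFX6. It rose, with a log2 fold change of 1.10 ± 0.23 (adjusted p = 0.0334), and passed in 1 of the 6 fits without a library, with adjusted p between 0.0197 and 0.152. On chromosome 3, the 50 tested genes nearest to BOC had a median of 0.59.

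The core of the pathway did not pass. CDON, the relative of BOC, was at 11.95, 15.9 and 8.89 CPM in sgControl and at 6.71, 5.91 and 6.18 CPM in sgRFX6, a log2 fold change of -0.97 (adjusted p = 0.106). SUFU, which restrains the GLI factors, was at 22.9, 24.3 and 26.1 CPM in sgControl and at 19.7, 16.7 and 12.5 CPM in sgRFX6, a log2 fold change of -0.58 (adjusted p = 0.260). Both had groups without overlap, and both passed with the correction for GC content (adjusted p = 0.0276 and 0.0496). Over all tested genes, the groups did not overlap for 23.1%, and 11.1% passed with this correction. SMO, the signal transducer that enters the cilium, was at -0.60 (adjusted p = 0.528). The target genes GLI1 and PTCH1 were at -0.25 and -0.09 and GLI2 at -0.05, with overlapping groups.

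Of the other RFX genes, 5 passed the filter beside RFX6, and all had log2 fold changes below 0 without passing the test. RFX2 was at 20.4, 28.96 and 17.5 CPM in sgControl and at 15.1, 13.5 and 13.9 CPM in sgRFX6, a log2 fold change of -0.66 without overlap (adjusted p = 0.225). RFX5, a factor of antigen presentation genes, was at 66.6, 90.6 and 71.7 CPM in sgControl and at 60.3, 54.6 and 48.9 CPM in sgRFX6, a log2 fold change of -0.48 (adjusted p = 0.246), and it passed with the correction for GC content (adjusted p = 0.0459). RFX3 was low, at 0.867, 1.30 and 0.691 CPM in sgControl and at 0.497, 0.377 and 0.818 CPM in sgRFX6, a log2 fold change of -0.73 (adjusted p = 0.509). RFX1 and RFX7 were at -0.06 and -0.10 with overlapping groups.

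**Figure D5:**
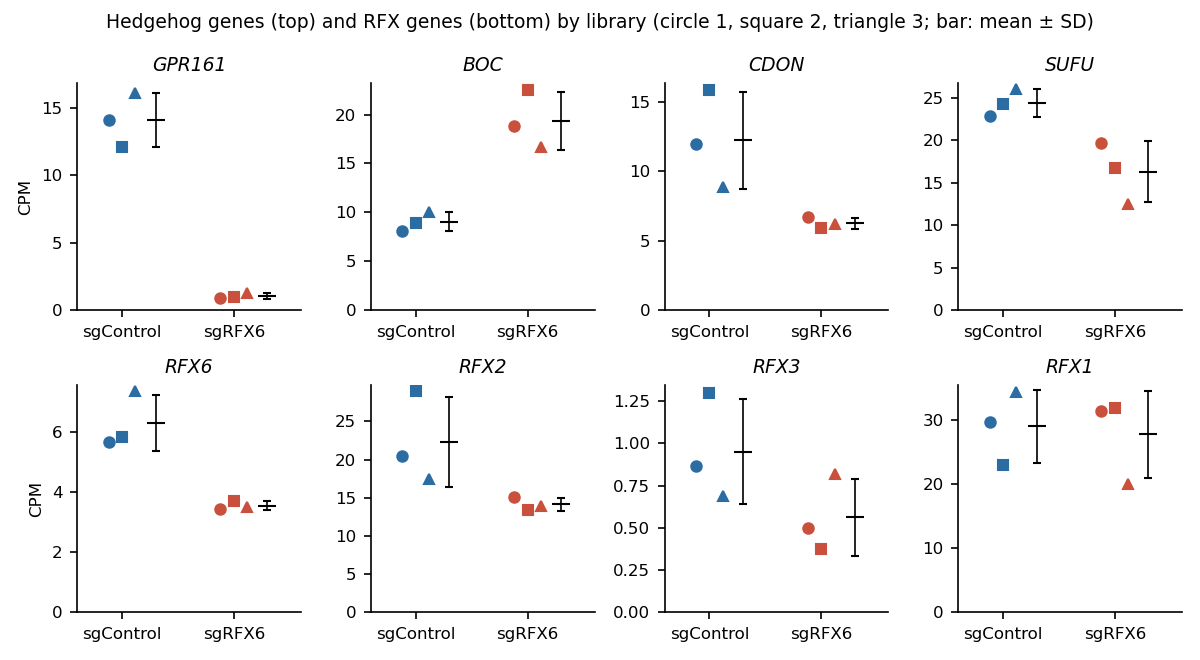
Level in CPM of 4 Hedgehog genes (top) and 4 RFX genes (bottom) in each library (circle library 1, square 2, triangle 3), with the mean ± SD of 3 libraries in black beside each group. GPR161 is at 12.1 to 16.1 CPM in sgControl and at 0.894 to 1.27 CPM in sgRFX6, and BOC is the one of the 8 that is higher in every sgRFX6 library.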

How the data were processed

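RNA from 6 Hep3B libraries had been isolated with Trizol and sequenced on the Illumina platform. The authors deposited unnormalised gene counts, 16721 rows by 6 libraries, and the labels name GRCh38 (hg38). The aligner, counting program and annotation are not given in the sources used here. Columns named cas were taken as sgControl, the only control group in the labels. The row without a gene name (at most 9.17e-05% of a library) was left out.

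Counts were analysed in R 4.3.3 with edgeR 4.0.16 (filterByExpr with a minimum count of 10 and total of 15, TMM, quasi-likelihood test of sgRFX6 against sgControl without covariates, Benjamini-Hochberg adjustment over 12839 genes, threshold 0.05). The study's methods name no differential expression test for the RNA-seq counts. Genes varied between libraries with a common biological coefficient of 0.269. A standard error is the log2 fold change over the root of its F value. With 3 against 3 libraries an exact permutation test cannot go below p = 0.1, so none is printed. On simulated counts the edgeR step recovered 100% of 200 genes changed by 2 on the log2 scale among 12902 tested, with 2.44% of calls false, and called 0 of 12868 with no gene changed. The changed genes were drawn only from those of higher mean count. The simulated dispersion was fixed below the common value of the data, and no trend with GC content was simulated. No pair of libraries was a duplicate (chi-square per degree of freedom 17.0 to 124). A count of 3 equals 0.122 to 0.189 CPM.

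Positions, exon lengths and GC content came from GENCODE 29, which is not stated to be the authors' annotation. Of the row names, 15422 matched by name, 266 by another symbol and 1033 did not. Promoters came from RefSeq.

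The members and lists were chosen with earlier results of these data known. Named with values were members past the test or an unadjusted p under 0.05, the extremes of fold change, the most abundant per length, members with an X-box, called genes of the other lists and the RFX genes. Other genes were named after their values were seen. Alternatives were scaling by RLE or by library size, DESeq2 1.42.0, limma-voom (limma 3.58.1) with and without sample quality weights, robust dispersion, other filters, a replicate block, fits without each library in turn, and GC offsets (a trend of span 0.3 of each library's log2 CPM, prior count 2, with GC content, passed to edgeR). GC offsets with a library left out, and offsets from the median of the nearest 50 tested genes, were added after seeing the data.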

Additional observations from a re-analysis of the deposited data

How the results depend on the processing

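The median log2 fold change of the 55 ciliary genes stayed between -0.07 and 0.19 under all 24 alternatives, whereas the number called followed the fit. DESeq2 called 2 of them, GC offsets 3, GC offsets with the replicate block 2, limma-voom with sample quality weights 10 (7 higher, 3 lower, where it called 31.1% of all tested genes) and the offsets of the nearest 50 genes 0. Leaving out a library gave 0 to 2, and 1 to 5 together with GC offsets. The count was 0 without any one of sgControl libraries 1, 2 and 3 or sgRFX6 libraries 1 and 2, 2 without sgRFX6 library 3 (IFT46 and KIFAP3), and 5 with GC offsets without sgControl library 2. Over all genes the 480 calls became 895 by DESeq2, 3998 with quality weights, 1360 with GC offsets, 805 with GC offsets and the replicate block, 212 to 718 without a library, and 526 to 2067 with GC offsets without a library (791 without sgControl 1, 766 without sgControl 3, 834 without sgRFX6 3). The replicate numbers did not pair the samples, since deviations of same-numbered libraries correlated at -0.41, 0.17 and -0.09. Differently numbered libraries correlated between -0.45 (sgControl 1 with sgRFX6 2) and 0.57 (sgControl 1 with sgRFX6 3), so deviations were shared across the groups. With the replicate block 0 ciliary genes were called, where 648 of all genes were, and IFT46 had an adjusted p of 0.0625. The offsets of the nearest 50 genes, under which 0 members were called, left 371 calls over all genes. Of the other cilium genes, edgeR called 0, DESeq2 1, limma-voom 1, quality weights 7, GC offsets 1, GC offsets with the block 1, and GC offsets without a library 0 to 2. RFX6 passed at -0.96 with quality weights (adjusted p = 0.00274), at -0.85 with GC offsets (adjusted p = 0.0467) and at -0.90 with GC offsets without sgControl library 2 (adjusted p = 0.0391). Without a library its log2 fold change ran from -0.89 to -0.67, and from -0.97 to -0.71 with GC offsets. CEP290 ran from -0.26 to 1.96 without a library, -0.26 being without sgRFX6 library 3, and was -0.0021 without that library and with GC offsets. With GC offsets and no library left out, CEP290 was at 0.96 (adjusted p = 0.267). IFT122 turned to -0.10 with the offsets of the nearest 50 genes, and TTC30A to 0.03 and 0.17 without sgRFX6 library 1 or 2. GTTGCC was found in 44.0% of the matched genes, the X-box in 16.0%. Apart from what the alternatives remove by construction, the cause of these changes was not tested. In simulated counts, changes of 2 on the log2 scale were called, but only genes of higher count were changed there. The simulation therefore cannot say whether depth limited the calls among members of low count. At 3 libraries a group, smaller changes of these genes may be missed.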
